A study of Saccharomyces cerevisiae with 9 samples.

Results

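The 10 genes described here act in gluconeogenesis and the glyoxylate cycle, or carry substrates into these pathways, or switch them on. The rule that chose them names them for these roles and uses no measured value, although it was written with earlier results of these data known. They are PCK1, FBP1, ICL1, MLS1, MDH2, SFC1, JEN1, ACS1, CAT8 and ADR1. These are 10 of the 7128 gene rows in the deposited table of counts, and all 10 passed the filter on low counts that left 6338 genes to be tested. RNA-seq was performed on BY4743, a diploid laboratory strain of Saccharomyces cerevisiae derived from S288C, carrying the multicopy plasmid pTOW40836. The vector control held the empty plasmid (Vector), and the other groups expressed from it, under the strong TDH3 promoter, either EGFP (GFPop) or moxGFP (MOXop), a GFP variant made without cysteines. Each group had 3 biological replicates, grown to log phase in synthetic medium without leucine and uracil, and the sources used here do not name the sugar of that medium. All 3 groups carry the URA3 marker and a weak LEU2 allele on the plasmid, which selects for a high copy number without leucine, so that the dose of the plasmid is set by the cells and can differ between groups. The comparisons ask how the transcripts of these genes differ when cells make an excess of EGFP or of moxGFP.

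Gluconeogenesis makes glucose phosphates from small carbon compounds, and the glyoxylate cycle supplies it by turning acetyl-CoA into C4 acids without losing the carbon dioxide that the citric acid cycle releases. In budding yeast, both pathways are used during growth on ethanol, acetate or lactate and are shut down by glucose. The kinase Snf1 inactivates the repressor Mig1 when glucose runs out, which frees the activator gene CAT8, and Cat8 then turns on many of these genes through the carbon source-responsive element (CSRE), while Adr1 acts on genes for the use of ethanol and fatty acids.

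The upstream DNA of the genes was searched first, because a shared CSRE is the best known feature that ties them together. The windows ran 600 bases upstream of each start codon in the R64 reference of S288C, and both strands were read. The core of the element, read as CC, any 2 bases, T, any 3 bases and then CCG, was present upstream of 6 of the 10 genes (PCK1, ICL1, MLS1, MDH2, SFC1 and ACS1) and upstream of 524 of 6005 genes of the whole genome, or 8.73%. The element was already known to act on many of these genes, so the difference between these shares is a description and not a test. For each of the 6 genes, the match on the coding strand nearest to the start codon is shown with the bases around it. The direction is 5′ to 3′ along the gene, with the match in capitals. Within the capitals, only CC, T and CCG had to be shared, because the search required these letters, and the other bases differ between genes.
PCK1: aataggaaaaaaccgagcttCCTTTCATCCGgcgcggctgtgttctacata
ICL1: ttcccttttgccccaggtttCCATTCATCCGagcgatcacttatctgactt
MLS1: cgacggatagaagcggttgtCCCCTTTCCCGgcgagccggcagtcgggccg
MDH2: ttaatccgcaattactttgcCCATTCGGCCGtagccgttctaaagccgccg
SFC1: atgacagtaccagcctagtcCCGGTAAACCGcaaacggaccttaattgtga
ACS1: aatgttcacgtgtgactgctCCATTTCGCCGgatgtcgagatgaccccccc

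In R64, from RefSeq, these stretches lie at chrXI:630651-630701 (PCK1), chrV:287282-287332 (ICL1, minus strand), chrXIV:405880-405930 (MLS1), chrXV:83267-83317 (MDH2, minus strand), chrX:609262-609312 (SFC1) and chrI:45363-45413 (ACS1, minus strand). The printed matches began 481 bases before the start codon in PCK1, 398 in ICL1, 458 in MLS1, 377 in MDH2, 491 in SFC1 and 371 in ACS1. In all, ICL1 had 1 match, SFC1 and ACS1 had 2 each, and PCK1, MLS1 and MDH2 had 3 each. FBP1, JEN1, CAT8 and ADR1 had no match to these letters in the window. A match is a string of letters and was not tested as a binding site.

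**Figure D1:**
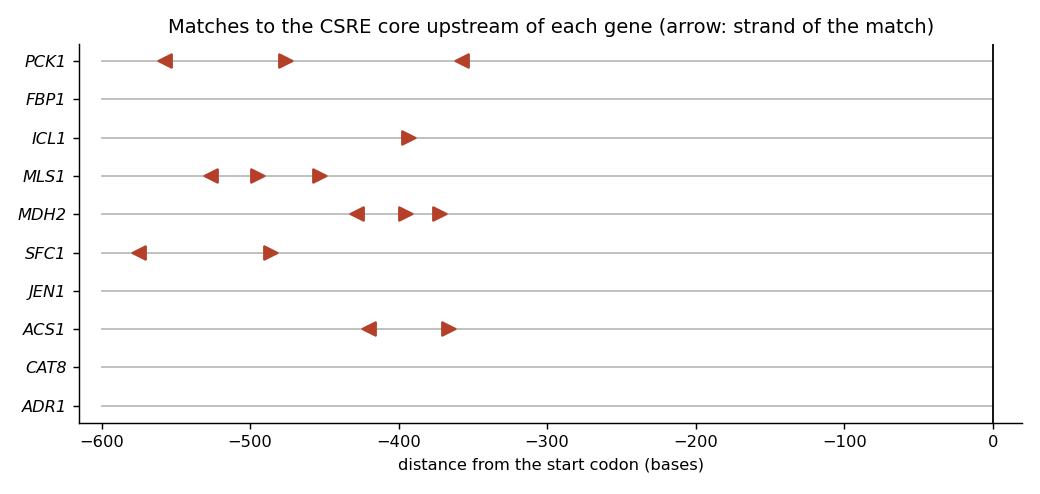
Matches to the CSRE core in the 600 bases upstream of the start codon of each of the 10 genes, by distance from the start codon in bases and by strand. The 14 matches lie in 6 genes, and FBP1, JEN1, CAT8 and ADR1 have none.

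The letters of other regulators of these genes were searched in the same windows. GCGGGG, a form of the box that Mig1 binds, was found upstream of CAT8 alone (6.79% of all windows), and GTGGGG, another form of it, upstream of FBP1 and CAT8 (10.7%). TTGGNG, the half-site of Adr1, was present in 6 of the 10 windows against 59.8% of all windows. The CCAAT box, read by the Hap complex, was present in 10 of 10 against 70.3%, and on the opposite strand its letters overlap those of the Adr1 half-site.

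The libraries held 7022201 to 12959660 counts over the gene rows. The transgenes matched the labels, since the EGFP entry took 11.2% to 23.8% of the counts in GFPop and the moxGFP entry took 4.11% to 31.1% in MOXop. MOXop replicate 2 stood apart, with 61.2% of its counts in ribosomal RNA against 2.74% to 23.0% in the other 8 libraries, and the calls of the genes named below that change without it are given both ways. Of 15 genes that are off in a/alpha diploids, 14 were at 20.2 counts-per-million (CPM) or less in every library. SAG1, the alpha-agglutinin, was the exception at 23.9 to 107 CPM, and the median gene tested stood at 16.1 to 19.8 CPM in each library. MF(ALPHA)1, an alpha-factor gene, differed between the groups without overlap, at 0.824 to 1.19 CPM in Vector, 1.88 to 4.64 in GFPop and 14.3 to 20.2 in MOXop. Its sister gene MF(ALPHA)2 was at 1.52 to 2.02, 2.10 to 4.15 and 4.52 to 12.5 CPM. Other genes of the list went the other way. BAR1 was at 12.2 to 14.5 CPM in Vector, 6.62 to 11.4 in GFPop and 2.62 to 5.50 in MOXop. GPA1 was at 12.2 to 16.1, 2.70 to 5.53 and 5.10 to 7.47 CPM in the same order. Summed over the 15 genes, the level was 122 to 204 CPM in Vector, 101 to 126 in GFPop and 114 to 153 in MOXop. The part of these genes in the results below was not tested. These are bulk measurements, in which a change in some of the cells and a smaller change in all of them cannot be told apart.

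All levels below are CPM scaled by the trimmed mean of M-values (TMM), and "called" means an FDR below 0.05 in edgeR's quasi-likelihood test over the 6338 genes. Per kilobase of coding sequence, ICL1 had the highest level in the vector control, at 70.9 ± 32.2 CPM per kb (SD, n = 3). ACS1 followed at 49.0 ± 4.0, and then MDH2 at 28 ± 3.55, FBP1 at 24.6 ± 6.18, MLS1 at 24.4 ± 5.05 and PCK1 at 20.5 ± 1.94. JEN1 was at 9.28 ± 1.83 CPM per kb, SFC1 at 6.91 ± 1.45, CAT8 at 4.89 ± 0.721 and ADR1 at 3.00 ± 0.909. The vector libraries of neighbours in this order overlapped for ICL1 and ACS1, for each step from MDH2 to PCK1, and for JEN1 and SFC1, while the other neighbours were apart.

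In GFPop, ICL1 and MLS1, which encode 2 enzymes of the glyoxylate cycle, fell relative to the vector control while JEN1 and ADR1 rose. These were 4 of the 10 genes, 2 higher and 2 lower, beside 15.4% of all genes tested (7.6% higher and 7.76% lower). In MOXop, 4 genes fell relative to the vector control (PCK1, FBP1, ICL1 and MLS1) and 0 rose, beside 28.8% of all genes tested (14.8% higher and 14.0% lower). At an unadjusted p under 0.05, 5 were lower and 0 higher in edgeR, and DESeq2 called 5 lower and 0 higher. Over all genes, 2738 of 6338 had such a p and DESeq2 called 34.7%, either direction. Between MOXop and GFPop, 1 gene differed, JEN1, which was lower in MOXop, beside 14.5% of all genes tested (7.48% higher and 7.07% lower). At an unadjusted p under 0.05, 5 were lower and 0 higher there, and DESeq2 called 2 lower and 0 higher. Over all genes, 2113 of 6338 had such a p and DESeq2 called 22.9%, either direction. Both overexpressing groups were compared with the same 3 vector libraries.

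The calls depended on how the libraries were scaled. With library sizes set by the ERCC spike-ins, 0 of the 10 genes were called in each comparison, where 21, 28 and 4 of all genes were. An unadjusted p under 0.05 in edgeR was then held by 3, 2 and 0 of the 10, beside 401, 634 and 304 of all 6338 genes. In that scaling, the log2 fold changes in GFPop against Vector were -3.02 for MLS1, -2.04 for ICL1, 1.16 for JEN1 and 1.91 for ADR1. The spike-ins took 0.144%, 0.405% and 0.163% of the counts in the vector libraries, and the part of this spread in the lost calls was not tested. With library sizes alone, MLS1 stayed called in GFPop, ICL1 and MLS1 in MOXop, and JEN1 between MOXop and GFPop. The directions of all the called genes were kept under each of the 18 other settings.

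The median log2 fold change of the 10 genes was -0.32 in GFPop against Vector, where that of all genes tested was 0.09. In MOXop against Vector the medians were -0.80 and 0.14, and in MOXop against GFPop they were -0.79 and 0.01. With library sizes alone, the median of the 10 genes in GFPop against Vector turned to 0.12, where that of all genes was 0.52. The 3 libraries of one group lay entirely above or below those of the other for 7 of the 10 genes in GFPop against Vector, beside 45.8% of all genes tested. The same held for 5 of 10 in MOXop against Vector (45.3% of all genes) and for 5 of 10 in MOXop against GFPop (35.8%).

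**Figure D2:**
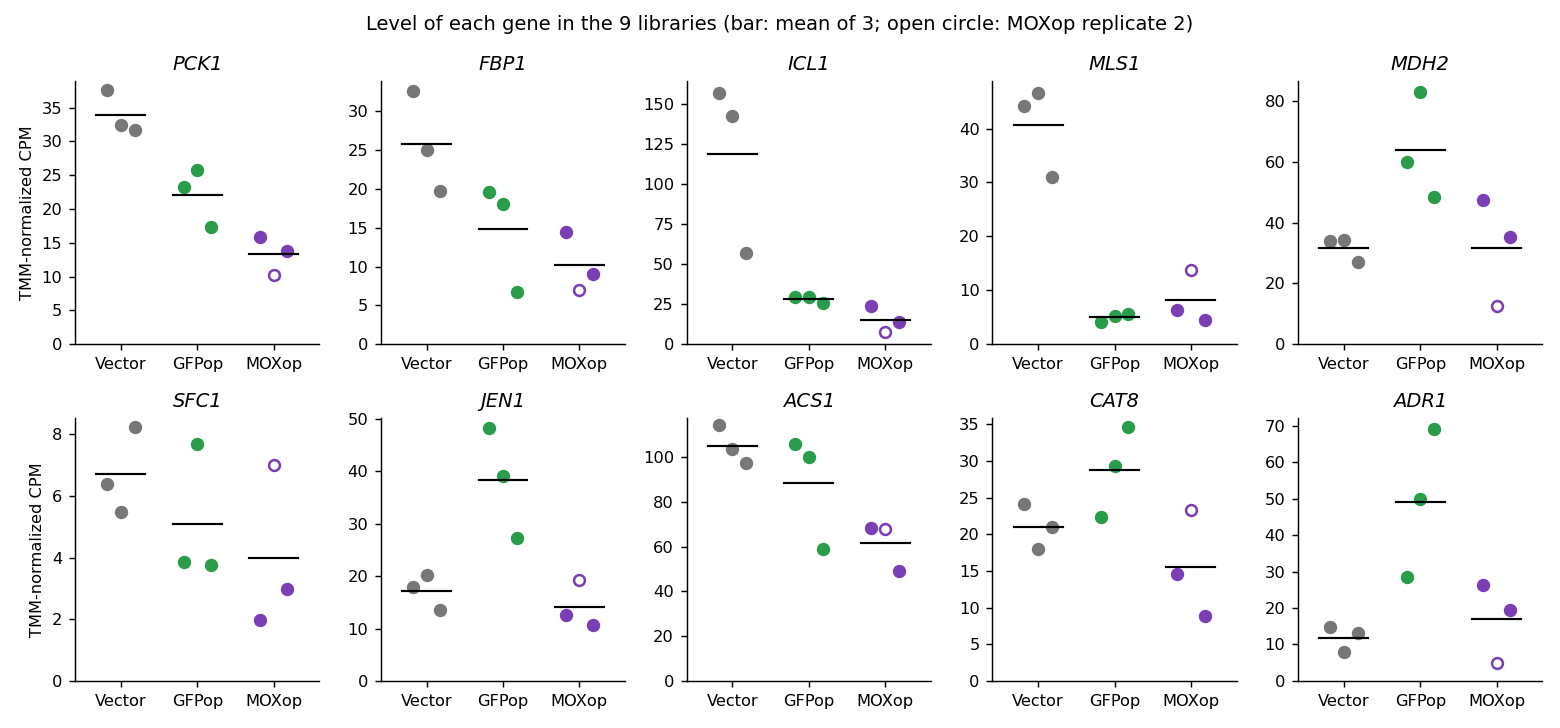
CPM of each gene in each of the 9 libraries, 1 point per library, with the open circle for MOXop replicate 2. MLS1 lies at 31.0 to 46.7 CPM in the vector control and at 4.15 to 13.7 CPM in the 6 overexpressing libraries.

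MLS1 (YNL117W), on chromosome XIV at 406358 to 408022 on the plus strand, encodes malate synthase, which joins acetyl-CoA to glyoxylate. Its level was 44.1, 46.7 and 31.0 CPM in the vector libraries, 4.15, 5.16 and 5.64 CPM in GFPop, and 6.29, 13.7 and 4.57 CPM in MOXop. Every vector library was above every overexpressing library, and the highest of the MOXop libraries was replicate 2. MLS1 fell by 3.02 on the log2 scale in GFPop (SE 0.40, FDR = 0.0015), or 8.13-fold. In MOXop it fell by 2.37 (SE 0.39, FDR = 0.0030), or 5.16-fold. The call was kept in both comparisons under 17 of 18 other settings, and was lost when the ERCC spike-ins set the library size. Its closest copy in the genome is DAL7, the malate synthase of the allantoin pathway, with 75.9% identity over 94.4% of the coding length.

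ICL1 (YER065C), on chromosome V at 285241 to 286914 on the minus strand, encodes isocitrate lyase, which splits isocitrate into glyoxylate and succinate. Its level was 157, 142 and 57.0 CPM in the vector libraries, 29.2, 29.6 and 25.6 CPM in GFPop, and 23.9, 7.87 and 14.0 CPM in MOXop. The groups did not overlap with the vector control, and vector replicate 3 was the lowest of its group. ICL1 fell by 2.08 in GFPop (SE 0.44, FDR = 0.0111) and fell by 2.94 in MOXop (SE 0.46, FDR = 0.0023), or 4.22-fold and 7.66-fold. The call in GFPop was lost without Vector replicate 1 (FDR = 0.0599), GFPop replicate 1 (0.0528) or GFPop replicate 2 (0.0510), while that in MOXop was kept in all 9 fits that left out a library.

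MDH2 (YOL126C), on chromosome XV at 81787 to 82920 on the minus strand, encodes the cytosolic malate dehydrogenase, which turns malate into oxaloacetate. Its level was 34.0, 34.2 and 27.1 CPM in the vector libraries, 59.8, 83.0 and 48.4 CPM in GFPop, and 47.4, 12.5 and 35.2 CPM in MOXop. The 3 GFPop libraries were above all others, and MOXop replicate 2 was the lowest of the 9. The log2 fold change was 1.01 in GFPop (SE 0.41, FDR = 0.120) and 0.01 in MOXop (SE 0.41, FDR = 0.983), and neither was called. Without MOXop replicate 2, from which the fit also estimates the spread, MDH2 was called higher in GFPop at 0.96 (FDR = 0.00947). The same held in the fit on GFPop and Vector alone, at 0.97 (FDR = 0.0110).

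In GFPop, MDH2 thus lay above the vector control, although it was not called, and MLS1 lay below it. Ratios of counts within a library need no scaling, but they show only how 2 genes differ relative to each other. MDH2 had 0.772, 0.732 and 0.875 counts per count of MLS1 in the vector libraries, 14.4, 16.1 and 8.59 in GFPop, and 7.53, 0.915 and 7.71 in MOXop. The GFPop libraries were all above the vector libraries, and MOXop replicate 2 was the one overexpressing library near them. This pair and the pairs below were chosen after their values were seen, and the ratios are a description without a test.

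**Figure D3:**
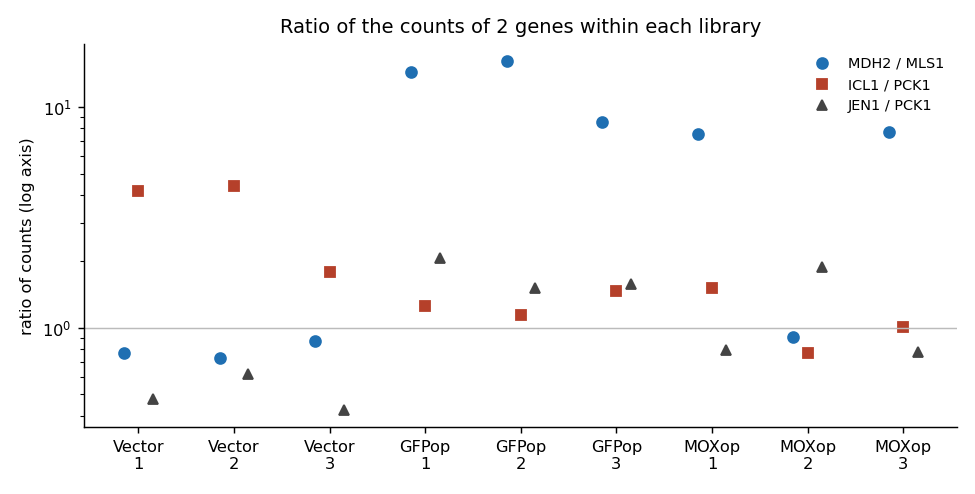
Ratio of the counts of 2 genes within each of the 9 libraries, 1 point per library for each pair of genes, on a log scale. MDH2 to MLS1 lies at 0.732 to 0.875 in the vector control and at 8.59 to 16.1 in GFPop.

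PCK1 (YKR097W), on chromosome XI at 631152 to 632801 on the plus strand, encodes phosphoenolpyruvate carboxykinase, the enzyme that commits oxaloacetate to gluconeogenesis. Its level was 37.6, 32.4 and 31.7 CPM in the vector libraries, 23.3, 25.7 and 17.4 CPM in GFPop, and 15.8, 10.2 and 13.8 CPM in MOXop. The 3 groups did not overlap, with the vector control highest and MOXop lowest. PCK1 fell by 1.34 in MOXop (SE 0.27, FDR = 0.0059), or 2.53-fold, and the call was kept in all 9 fits that left out a library. In GFPop the log2 fold change was -0.61 (SE 0.26, FDR = 0.136), which was called only without MOXop replicate 2 (-0.66, FDR = 0.0396). ICL1 had 4.17, 4.38 and 1.80 counts per count of PCK1 in the vector libraries, 1.25, 1.15 and 1.47 in GFPop, and 1.51, 0.771 and 1.01 in MOXop, so that the ratio was below every vector library in all 6 overexpressing libraries.

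FBP1 (YLR377C), on chromosome XII at 873746 to 874792 on the minus strand, encodes fructose-1,6-bisphosphatase, the last regulated step towards glucose 6-phosphate. Its level was 32.6, 25.0 and 19.7 CPM in the vector libraries, 19.6, 18.1 and 6.75 CPM in GFPop, and 14.5, 7.0 and 9.05 CPM in MOXop. All vector libraries were above all overexpressing libraries, with vector replicate 3 and GFPop replicate 1 almost equal. FBP1 fell by 1.32 in MOXop (SE 0.42, FDR = 0.0370), or 2.50-fold, but 5 of the 9 fits that left out a library lost the call, with FDR up to 0.138. They were those without any one of the 3 vector libraries, GFPop replicate 2 or MOXop replicate 3. The log2 fold change in GFPop was -0.80 (SE 0.41, FDR = 0.214).

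JEN1 (YKL217W), on chromosome XI at 22234 to 24084 on the plus strand, encodes the permease that brings lactate and pyruvate into the cell. Its level was 17.9, 20.2 and 13.5 CPM in the vector libraries, 48.4, 39.2 and 27.3 CPM in GFPop, and 12.6, 19.2 and 10.7 CPM in MOXop. GFPop was above both other groups in every library, and MOXop overlapped with the vector control. JEN1 rose by 1.16 in GFPop (SE 0.31, FDR = 0.0313), or 2.23-fold, and was lower in MOXop than in GFPop by a log2 fold change of -1.45 (SE 0.32, FDR = 0.0167). Against the vector control, the value in MOXop was -0.30 (SE 0.32, FDR = 0.497). The rise in GFPop was called in 4 of the 9 fits that left out a library and lost without any one of the 3 vector libraries, GFPop replicate 1 or GFPop replicate 2, with FDR of 0.0517 to 0.132. The difference between MOXop and GFPop was lost without GFPop replicate 1 (FDR = 0.0665) or GFPop replicate 2 (0.0817), and in the fit on those 2 groups alone (0.0555).

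The rise of JEN1 in GFPop was opposite to the lower levels of ICL1 and MLS1. JEN1 had 0.476, 0.621 and 0.425 counts per count of PCK1 in the vector libraries, 2.08, 1.52 and 1.57 in GFPop, and 0.795, 1.89 and 0.777 in MOXop. Both overexpressing groups were above the vector control in this ratio. In GFPop, every library had a higher CPM of JEN1 and a lower CPM of PCK1 than every vector library. In MOXop, PCK1 was lower in every library, while JEN1 overlapped with the vector control.

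SFC1 (YJR095W), on chromosome X at 609773 to 610741 on the plus strand, encodes the mitochondrial carrier that exchanges succinate for fumarate and so links the cycle to the mitochondrion. It ranged from 5.47 to 8.23 CPM in the vector control, from 3.76 to 7.70 CPM in GFPop and from 1.97 to 7.0 CPM in MOXop, from as few as 20 counts in a library. The groups overlapped, and the log2 fold changes were -0.39 in GFPop (SE 0.49, FDR = 0.626) and -0.83 in MOXop (SE 0.51, FDR = 0.225). Without MOXop replicate 2, the highest of its group, the value in MOXop was called at -1.43 (FDR = 0.0198).

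ACS1 (YAL054C), on chromosome I at 42881 to 45022 on the minus strand, encodes the acetyl-CoA synthetase that glucose represses. It ranged from 97.4 to 114 CPM in the vector control, from 58.9 to 106 CPM in GFPop and from 49.2 to 68.1 CPM in MOXop. The MOXop libraries were all below the vector libraries, and the log2 fold change of -0.77 (SE 0.29, FDR = 0.0629) missed the threshold. It was called without MOXop replicate 2 (-0.85, FDR = 0.0334), without GFPop replicate 3 and in DESeq2's test. The value in GFPop was -0.25 (SE 0.28, FDR = 0.587).

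ADR1 (YDR216W), on chromosome IV at 895035 to 899006 on the plus strand, encodes the zinc-finger activator of ADH2 and of peroxisomal genes. Its level was 14.8, 7.87 and 13 CPM in the vector libraries, 28.4, 49.8 and 69.0 CPM in GFPop, and 26.4, 4.96 and 19.4 CPM in MOXop. Every GFPop library was above every other library, and MOXop replicate 2, with 17 counts, was the lowest of the 9. ADR1 rose by 2.05 in GFPop (SE 0.52, FDR = 0.0246), or 4.13-fold. The rise was called in 4 of the 9 fits that left out a library and lost without any one of the 3 vector libraries, GFPop replicate 2 or GFPop replicate 3, with FDR of 0.0711 to 0.0870.

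In MOXop, the log2 fold change of ADR1 against the vector control was 0.54 (SE 0.51, FDR = 0.437), and without MOXop replicate 2 it was called at 0.95 (FDR = 0.0476). Against GFPop it was -1.50 (SE 0.52, FDR = 0.0700), and it was called without MOXop replicate 2 at -1.06 (FDR = 0.0499), without MOXop replicate 1 at -1.93 (FDR = 0.0427) and in DESeq2's test at -1.51 (adjusted p = 0.0263).

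CAT8 (YMR280C), on chromosome XIII at 827028 to 831329 on the minus strand, encodes the activator that binds the CSRE. It ranged from 18.0 to 24.2 CPM in the vector control, from 22.4 to 34.6 CPM in GFPop and from 8.79 to 23.3 CPM in MOXop, and both overexpressing groups overlapped with the control. The log2 fold change was 0.45 in GFPop (SE 0.34, FDR = 0.401) and -0.46 in MOXop (SE 0.35, FDR = 0.329). Without MOXop replicate 2, the highest of its group, CAT8 was called lower in MOXop against the vector control (-0.85, FDR = 0.0383) and against GFPop (-1.26, FDR = 0.0107). ADR1 had 0.613, 0.438 and 0.622 counts per count of CAT8 in the vector libraries, 1.27, 1.70 and 1.99 in GFPop, and 1.81, 0.213 and 2.21 in MOXop, so that 5 of the 6 overexpressing libraries were above every vector library and MOXop replicate 2 was below every one.

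**Figure D4:**
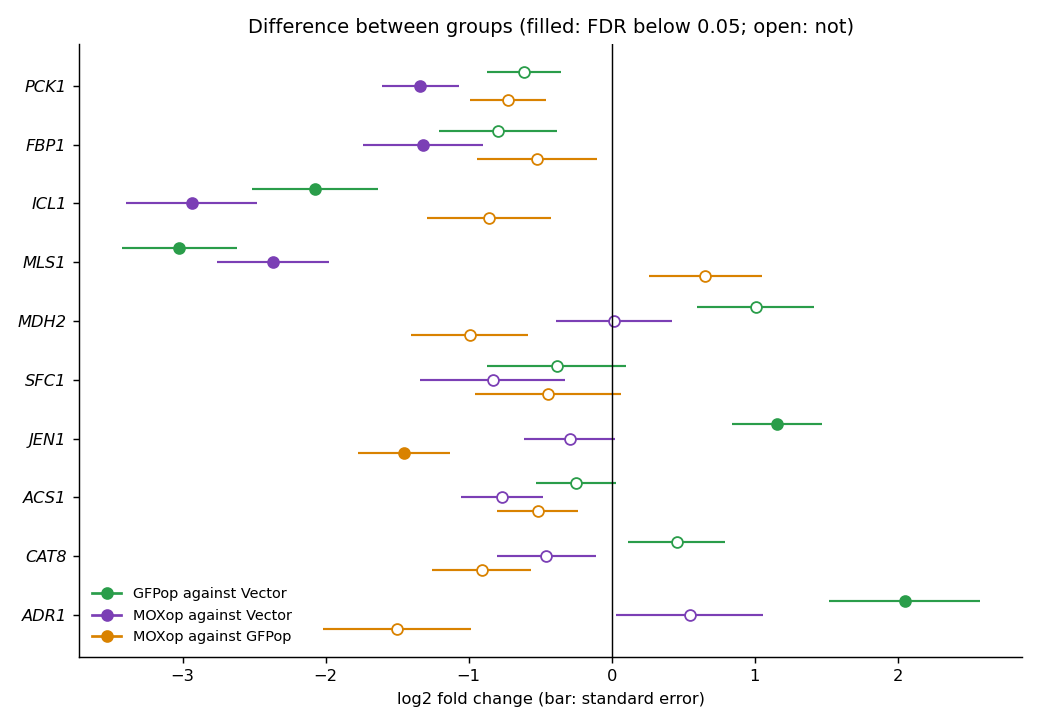
Log2 fold change of each gene in the 3 comparisons, with bars of 1 SE and filled points for FDR below 0.05 in edgeR's quasi-likelihood test. ICL1 and MLS1 are the genes called lower in both overexpressing groups against the vector control, and JEN1 and ADR1 the genes called higher in GFPop.

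Of the 6 genes with the CSRE core, ICL1 and MLS1 were called lower in GFPop, and PCK1, ICL1 and MLS1 in MOXop. FBP1, with no match to these letters in the window, was called lower in MOXop. MDH2, with 3 matches, was called in neither group in the fit over all 9 libraries. It was called higher in GFPop without MOXop replicate 2 and in the fit on GFPop and Vector alone. Whether the matches bear on the calls was not tested. The member calls in all 3 comparisons were kept without MOXop replicate 2, and others were added, in all 6 of the 10 genes in GFPop against Vector, 8 in MOXop against Vector and 3 in MOXop against GFPop. Over all genes, the calls then also increased, to 32%, 37.3% and 21.8%.

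Summed over the 10 genes, the CPM taken over the counts outside ribosomal RNA and the GFP entries was 497, 505 and 363 in the vector libraries, 587, 668 and 577 in GFPop, and 347, 193 and 323 in MOXop. In this unit MOXop was below the other groups and GFPop above them in every library, but the place of GFPop turned with the scaling. Summed as TMM-scaled CPM, the 10 genes were at 483, 435 and 320 in the vector libraries, 345, 388 and 297 in GFPop, and 232, 174 and 168 in MOXop. GFPop then overlapped with the vector control, and MOXop was again below both in every library. The TMM factor was 1.28 to 1.31 in GFPop and 0.793 to 1.06 in the vector control.

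The genes that surround these pathways were described with a list of 52 genes in 7 roles, all of which passed the filter. In GFPop, 5 of the 52 rose and 3 fell, with a median log2 fold change of 0.24. In MOXop, 1 rose and 17 fell, with a median of -0.35, and between MOXop and GFPop 0 were higher and 9 lower in MOXop, with a median of -0.65. In this last comparison, 1 was higher and 23 lower at an unadjusted p under 0.05 in edgeR, and DESeq2 called 0 higher and 13 lower. Over all genes there, 2113 of 6338 had such a p and DESeq2 called 22.9%. The calls made up 15.4% of the 52 genes in GFPop, 34.6% in MOXop and 17.3% between the overexpressing groups, beside 15.4%, 28.8% and 14.5% of all genes tested. Without MOXop replicate 2, 11 were higher and 8 lower in GFPop, 4 higher and 19 lower in MOXop, and 2 higher and 13 lower between MOXop and GFPop. The roles below hold 4 to 10 genes each, so their counts are descriptions and nothing particular to a role is read from them. The medians of all genes tested were 0.09, 0.14 and 0.01 in the same order.

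**Figure D5:**
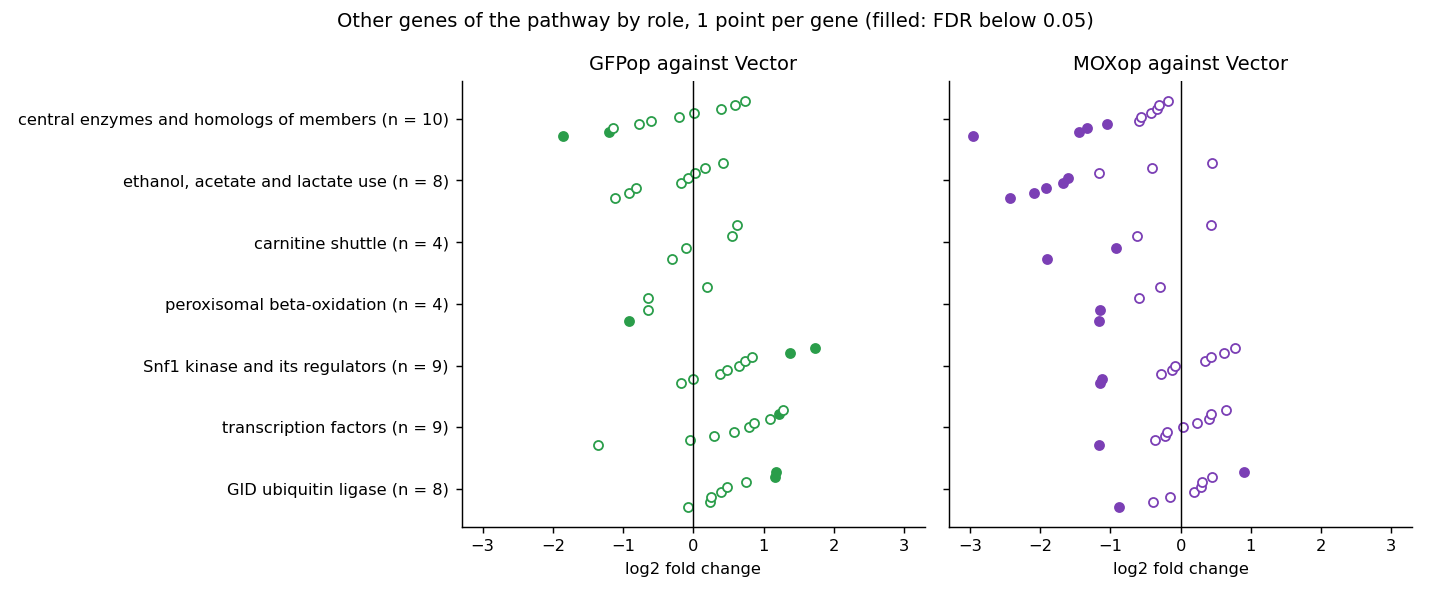
Log2 fold change of the 52 other genes by role in GFPop and MOXop against the vector control, 1 point per gene, filled where the FDR was below 0.05 in edgeR's quasi-likelihood test. In MOXop, 5 of the 8 genes of ethanol, acetate and lactate use are filled, all of them below 0, beside 14.0% of all genes tested.

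Among the central enzymes and homologs of the members, 2 of 10 fell in GFPop and 4 in MOXop, beside 7.76% and 14.0% of all genes tested. ACO1, the aconitase that makes the isocitrate that Icl1 splits, was at 957 to 1499 CPM in the vector control, 294 to 365 in GFPop and 74.7 to 237 in MOXop. It fell by 1.85 in GFPop (FDR = 0.0128) and fell by 2.96 in MOXop (FDR = 0.0016), and the call in MOXop was kept in all 9 fits that left out a library. PYC2, a pyruvate carboxylase, which makes oxaloacetate from pyruvate, fell by 1.2 in GFPop (FDR = 0.0250) and fell by 1.45 in MOXop (FDR = 0.0080). In GFPop, the call of ACO1 was lost without Vector replicate 1, GFPop replicate 1 or GFPop replicate 2 (FDR = 0.0530 to 0.0666), and that of PYC2 without these or Vector replicate 3 or GFPop replicate 3 (FDR = 0.0705 to 0.111).

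The homologs of the members did not all follow them. ICL2, a mitochondrial relative of ICL1 that acts in propionate breakdown, fell by 1.34 in MOXop (FDR = 0.0062) and had a value of -0.77 in GFPop (FDR = 0.071), which was called without MOXop replicate 2 (FDR = 0.0133). DAL7, the relative of MLS1, was at 19.6 to 22.8 CPM in the vector control, 27.4 to 28.9 in GFPop and 8.75 to 20.7 in MOXop, with log2 fold changes of 0.40 and -0.42 that were not called. The mitochondrial and peroxisomal malate dehydrogenases MDH1 (0.74 in GFPop and -0.34 in MOXop) and MDH3 (-0.20 and -0.59) were not called either, except MDH3 in MOXop without MOXop replicate 2 (FDR = 0.0127). Between MOXop and GFPop, MDH1 was called lower in MOXop in DESeq2's test alone (-1.06, adjusted p = 0.0231).

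Of the genes of ethanol, acetate and lactate use, 5 of 8 were called lower in MOXop, beside 14.0% of all genes tested. In GFPop, 0 of 8 were called by edgeR, where 2 were lower at an unadjusted p under 0.05 and DESeq2 called 1 lower. Over all genes in GFPop, 1964 of 6338 had such a p and DESeq2 called 21.2%. ALD4, the mitochondrial aldehyde dehydrogenase, was at 318 to 416 CPM in the vector control, 280 to 465 in GFPop and 60.7 to 109 in MOXop. It fell by 2.09 in MOXop (FDR = 0.0024) and was lower there than in GFPop at -2.11 (FDR = 0.0051), and both calls were kept in all 9 fits that left out a library. ALD6, its cytosolic counterpart, fell by 2.43 in MOXop (FDR = 0.0040), and CYB2, the lactate dehydrogenase of the mitochondrial intermembrane space, fell by 1.92 (FDR = 0.0019).

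Against GFPop, 4 of these 8 genes were lower in MOXop, beside 7.07% of all genes tested. ALD6 was among them at -1.52 (FDR = 0.0388), and so was ACH1, a mitochondrial CoA transferase that acts on acetate, at -1.77 (FDR = 0.0123). ACS2, the acetyl-CoA synthetase used on glucose and the closest copy of ACS1 (66.1% identity over 71.0% of the coding length), fell by 1.67 in MOXop (FDR = 0.0291), with a value of -1.12 in GFPop that was called only in the fit without MOXop replicate 2 (FDR = 0.0038) and in that on those 2 groups alone. Its call in MOXop was lost without Vector replicate 1, Vector replicate 3 or MOXop replicate 3 (FDR = 0.0590 to 0.104). The difference of ALD6 from GFPop was lost without any one of the 3 vector libraries, GFPop replicate 1 or 2, or MOXop replicate 3 (FDR up to 0.139), and that of ACH1 without GFPop replicate 2 (FDR = 0.0702).

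The carnitine shuttle, which carries acetyl units between compartments, had 2 of 4 genes lower in MOXop, beside 14.0% of all genes tested. In GFPop, edgeR and DESeq2 called 0 of 4, and 2 were higher at an unadjusted p under 0.05. CRC1, the mitochondrial acetylcarnitine carrier, was at 14.7 to 17.4 CPM in the vector control, 10.2 to 19.0 in GFPop and 2.72 to 7.08 in MOXop, and fell by 1.91 in MOXop (FDR = 0.0074). CAT2, the main carnitine acetyltransferase, fell by 0.92 (FDR = 0.0261). Both were also lower in MOXop than in GFPop, at -1.80 (FDR = 0.0181) for CRC1 and -1.54 (FDR = 0.0076) for CAT2. The difference from GFPop was lost without GFPop replicate 2 for both (FDR up to 0.0852) and without GFPop replicate 1 for CRC1, and the fall of CAT2 was lost without Vector replicate 1, Vector replicate 3 or MOXop replicate 3 (FDR = 0.0555 to 0.111).

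Peroxisomal beta-oxidation had 1 of 4 genes lower in GFPop and 2 of 4 in MOXop, beside 7.76% and 14.0% of all genes tested. FOX2, the multifunctional enzyme, fell by 0.91 in GFPop (FDR = 0.0414). POX1, the acyl-CoA oxidase, fell by 1.16 in MOXop (FDR = 0.0388) and CTA1, the peroxisomal catalase, fell by 1.15 (FDR = 0.0277). The call of FOX2 was lost without any one of the 6 libraries compared (FDR = 0.0750 to 0.137). That of POX1 was lost without Vector replicate 1 or 3, GFPop replicate 2, or MOXop replicate 1 or 3 (FDR = 0.0595 to 0.133), and that of CTA1 without Vector replicate 1 or MOXop replicate 3 (FDR = 0.0929 to 0.125).

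Of the Snf1 kinase and its regulators, 2 of 9 genes rose in GFPop and 2 fell in MOXop, or 22.2% in each, beside 15.4% and 28.8% of all genes. In GFPop they were REG1, which directs the phosphatase Glc7 to Snf1, at 1.73 (FDR = 0.0178), and SAK1, the main kinase that activates Snf1, at 1.38 (FDR = 0.0443), which act on the kinase in opposite directions. In MOXop they were the beta subunits GAL83 (-1.15, FDR = 0.0309) and SIP2 (-1.12, FDR = 0.0310), both also lower there than in GFPop, at -1.15 (FDR = 0.0491) and -1.50 (FDR = 0.0191). The calls of REG1 and SAK1 were lost without any one of the 6 libraries compared, and that of SAK1 also without MOXop replicate 1 (FDR = 0.0526 to 0.192). In MOXop against Vector, those of GAL83 and SIP2 were lost without any one of the vector libraries or MOXop replicate 3, and that of GAL83 also without GFPop replicate 2 (FDR = 0.0502 to 0.0996). Against GFPop, that of SIP2 was lost without GFPop replicate 1 or 2 or MOXop replicate 3, and that of GAL83 was kept only without MOXop replicate 1 or 2 (FDR otherwise up to 0.168).

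Of 9 transcription factors, MIG2, a repressor related to Mig1, was called in GFPop, at 14.6 to 20.5 CPM in the vector control and 31.1 to 45.4 in GFPop, a rise of 1.23 (FDR = 0.0122). MIG3, another relative, fell by 1.16 in MOXop (FDR = 0.0190) and was lower there than in GFPop at -1.11 (FDR = 0.0373). SIP4, which binds the CSRE as Cat8 does, was at 9.07 to 19.4 CPM in the vector control, 3.69 to 8.63 in GFPop and 7.87 to 16.0 in MOXop. Its log2 fold change in GFPop was -1.36 (FDR = 0.0503), just outside the threshold, and it was called lower in 9 of the 18 other settings, among them DESeq2's test, the replicate block and the fits without Vector replicate 2, GFPop replicate 3 or MOXop replicate 2. Between MOXop and GFPop its value was 1.14 (FDR = 0.0858), and it was called higher in MOXop without MOXop replicate 2 (1.4, FDR = 0.0181), without GFPop replicate 3 (1.58, FDR = 0.0495) and with the replicate block (1.14, FDR = 0.0429). The rise of MIG2 was lost without Vector replicate 1 or 3 or GFPop replicate 1 or 2 (FDR = 0.0580 to 0.0642), and the fall of MIG3 without Vector replicate 1 or 2 (FDR = 0.0534 to 0.0584). The difference of MIG3 from GFPop was lost without any one of the vector libraries, GFPop replicate 1 or 2, or MOXop replicate 3 (FDR up to 0.133).

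The GID ubiquitin ligase marks gluconeogenic enzymes such as Fbp1 for destruction when glucose returns. In GFPop, 2 of its 8 genes rose, beside 7.6% of all genes tested. They were VID24, the subunit that recognises the enzymes, at 1.18 (FDR = 0.0233), and GID8 at 1.16 (FDR = 0.0123). In MOXop, VID24 rose by 0.90 (FDR = 0.0434) and GID7 fell by 0.89 (FDR = 0.0438). VID24 was at 34.1 to 40.3 CPM in the vector control, below all 6 overexpressing libraries, which ran from 44.9 to 93.2 CPM. Its call in GFPop was lost without any one of the vector libraries or GFPop replicate 1 or 2 (FDR = 0.0729 to 0.0952), and that in MOXop was kept only without GFPop replicate 3 or MOXop replicate 2 (FDR otherwise 0.0638 to 0.133). GID8 lost its call without Vector replicate 1 or 3 or GFPop replicate 1 or 2 (FDR = 0.0558 to 0.0630), and GID7 without these 4 or MOXop replicate 3.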

How the data were processed

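The authors checked reads of total RNA (stranded, paired-end) with FastP, ran HISAT2 (2.2.0) for the alignment, SAMtools (1.11) for formatting and StringTie for quantification, per the labels and the study's methods. The deposited table holds raw counts per gene, whole numbers without normalization, for 9 libraries and 7220 rows, 92 of them ERCC spike-ins. The genome build and the strand setting of the counting are not given in the sources used here. The study names edgeR (3.28.1 in the submitters' processing notes).

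Here the 7128 gene rows were filtered with filterByExpr, scaled by TMM and tested with edgeR (4.0.16, R 4.3.3) by the quasi-likelihood test over all 9 libraries without a replicate block. The Benjamini-Hochberg FDR was taken over the 6338 genes tested. Standard errors come from the fold change and the F statistic. Libraries held 7022201 to 12959660 gene counts, which limits the precision of genes with few counts, and the common biological coefficient of variation was 0.364. On data simulated for GFPop against Vector (6317 genes, 200 changed 4-fold), the test recovered 83.5% of the changed genes with 4.57% false calls, and DESeq2 (1.42.0) recovered 86.5% with 11.7%. The simulation gave every gene and library the same common spread and held no library like MOXop replicate 2, so these rates need not hold for the real data. No other gene overlaps a member in the R64 annotation, to which 6048 rows were matched by locus tag, and copies were sought with BLAST (2.17.0). P-values measure the spread between cultures labelled as biological replicates.

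All 10 members were named. From the list of 52, the 3 called genes with the largest change per role and comparison were named, and so were the relatives MDH1, MDH3, ACS2, DAL7, ICL2 and SIP4. The members and lists were chosen with earlier results of these data known. Alternatives were other scalings (DESeq2 size factors, library sizes, spike-ins), DESeq2's test, other filters, no ribosomal RNA or GFP entries, 2 groups alone, a replicate block, and leaving out each library.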

Additional observations from a re-analysis of the deposited data

How the results depend on the processing

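Among the 10 genes, 4 were called in GFPop against Vector, 4 in MOXop against Vector and 1 in MOXop against GFPop, and leaving out 1 library gave 1 to 6, 3 to 8 and 0 to 3. Of the 52 other genes, 8, 18 and 9 were called, and leaving out 1 library gave 0 to 19, 8 to 23 and 1 to 15. Among all genes, 974, 1824 and 922 were called, and leaving out 1 library gave 274 to 2049, 750 to 2388 and 101 to 1394. The number of calls thus moved widely over all genes too. With ERCC spike-ins as library size, 0 of the 10 and 0 of the 52 were called in each comparison by edgeR. Over all genes, 21, 28 and 4 were called. An unadjusted p under 0.05 was held by 3, 2 and 0 of the 10, 1, 5 and 3 of the 52, and 401, 634 and 304 of all genes. Library sizes alone called 1 and 2 of the 10 in GFPop and MOXop against Vector, and 0, 4 and 3 of the 52. They moved the median of all genes to 0.52 in GFPop against Vector and to -0.47 in MOXop against GFPop, and turned the sign of SFC1 (0.0406), ACS1 (0.20) and MDH3 (0.24) in the first and of MLS1 (-0.0905) in the last. Their calls over all genes split into 81 higher and 34 lower, 104 and 144, and 19 and 127 in the 3 comparisons. DESeq2's test called 2 of the 10 in MOXop against GFPop and 13 of the 52 in GFPop against Vector, beside 22.9% and 21.2% of all genes. Fitting 2 groups alone called 0 of the 10 in MOXop against GFPop, and 19, 10 and 2 of the 52, beside 31.0%, 19.4% and 3.91% of all genes. MDH2 in MOXop against Vector, near 0, turned to -0.043 with DESeq2 size factors, -0.046 in DESeq2's test, -0.028 with the replicate block, and -0.38 to 0.37 when a library was left out. SIP4 there ran from -0.48 to 0.0508 when a library was left out, with 0.0508 without Vector replicate 3. The causes were not tested. Replicate numbers did not pair the libraries (mean r of deviations -0.022 for 9 pairs with the same number and 0.011 for 18 with different numbers), and the replicate block called 4, 4 and 1 of the 10 and 7, 14 and 8 of the 52. Over all genes, the block called 11.6%, 23.8% and 9.39%. Low counts limit SFC1, MLS1 and ADR1, and the high share of ribosomal RNA leaves MOXop replicate 2 with the fewest other counts, 3084515.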
